A study of Mus musculus with 16 samples.

Results

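The expression of 10 genes, coding for kinases that act on tau, a kinase activator and subunits of the main tau phosphatase, was followed through the hippocampal transcriptomes of 16 mice. The members were the 10 of 54532 listed genes whose symbol was Gsk3a, Gsk3b, Cdk5, Cdk5r1, Fyn, Mark1, Mark2, Dyrk1a, Ppp2ca or Ppp2r2a, and each symbol matched 1 row of the count table. All 10 passed the filter on low counts in every comparison. The mice fell into 4 groups of 4. WT mice received vehicle water, WT + NR mice received 6 mM nicotinamide riboside (NR, a precursor of NAD+) in their drinking water, and hTau.P301S and hTau.P301S + NR mice carried a transgene under the same 2 treatments. The transgene is human tau with the P301S mutation, driven by the Thy1 promoter, which is active mainly in neurons. By the sample labels, treatment lasted 3 months, from an age of 12 to 15 months, and all mice had also gone through behavioural tests before tissue was taken. The study's text gives other ages and another duration, and the labels used here state neither sex nor genetic background. In whole tissue, fewer cells of a type and less RNA per cell cannot be told apart.

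Tau is a neuronal protein that binds microtubules, and the number and place of its phosphate groups govern that binding. Glycogen synthase kinase 3 (GSK3, with the isoforms alpha and beta), Cdk5 with its activator p35, the MARK kinases and DYRK1A place phosphates on serine and threonine residues of tau, and Fyn, a Src family kinase, acts on a tyrosine. Protein phosphatase 2A (PP2A) removes most of them in brain, as an enzyme of a scaffold, a catalytic and a regulatory B subunit. These enzymes are controlled to a large degree by phosphorylation, binding partners and methylation of the protein, none of which was measured by RNA counts.

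The question put to the data was whether mRNA of these enzymes differed with the tau transgene or with NR. None of the 10 genes was called in any of 6 comparisons, by edgeR's quasi-likelihood test or by DESeq2. Calling a gene took an adjusted p below 0.05 together with a log2 fold change of more than 0.5 in either direction, and for the interaction the adjusted p alone. Of the 16375 to 17555 genes tested per comparison, edgeR called 0 to 28 and DESeq2 0 to 283. A count of 0 among 10 genes is thus near the share of all genes. Ppp2r2a, the gene of a regulatory B subunit of PP2A, had the smallest genotype p of the 10 genes, at a fold of 1.21 (95% interval 1.06 to 1.39) between transgenic and WT mice over all 16 animals, and did not pass the adjustment (edgeR adjusted p = 0.355). Gsk3b and Mark1 were higher in each hTau.P301S + NR mouse than in any hTau.P301S mouse. Of all genes kept, 11.8% did not overlap between these groups. One mouse, hTau.P301S replicate 1, held the lowest or the highest level of the 16 mice for every one of the 10 genes. It did so for 66.9% of all genes kept, so values are given with and without it.

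Libraries held 16490261 to 21915362 counts. All 6 neuronal and all 6 hippocampal markers examined were counted. Summed levels of the hippocampal list were 470 to 722 CPM (counts per 1000000). Marker sums were scaled by library size alone, while CPM values of single genes are TMM-normalized. Thy1, the gene whose promoter drives the transgene, measured 804 to 1640 CPM in hTau.P301S and 462 to 633 CPM in WT mice. These groups did not overlap, as for 6.31% of all genes, and the 1640 came from hTau.P301S replicate 1. Under NR, Thy1 measured 667 to 845 CPM in transgenic and 424 to 580 CPM in WT mice. Over genotype in all 16 mice its log2 fold change was 0.79 (SE 0.15, edgeR adjusted p = 0.0435). The library of hTau.P301S replicate 1 stood apart. Mitochondrial genes took 14.4% of its counts against 4.48% to 7.07% in the other 15, it had 19467 detected genes against 22199 to 24918, and its neuronal markers summed to 1760 CPM against 3635 to 6224. Astrocyte markers (1126 CPM against 1315 to 3732) and endothelial markers (48.4 against 62.7 to 233) were also lowest there without TMM normalization. The TMM factor of this library was 0.685, against 0.955 to 1.10 in the other 15. These sums leave the factor out. Once each sum is divided by its library's factor, this mouse stays lowest for the neuronal markers but not for the astrocyte or endothelial markers. In hTau.P301S mice as a group endothelial markers summed to 48.4 to 113 CPM against 112 to 233 in WT and 129 to 146 in hTau.P301S + NR mice. WT replicate 2 had a summed level of 1162 CPM for 5 striatal markers, all counted, against 57.9 to 369 in the other 15 mice, and choroid plexus markers ranged from 12.9 to 9856 CPM over the mice, with high and low mice in every group. The part of these differences in the results was not tested.

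The genes lie on 8 chromosomes (positions from GENCODE vM21 on GRCm38, which is mm10), and all are protein-coding. Gsk3a (ENSMUSG00000057177) is at chr7:25228258-25237851 on the minus strand and Gsk3b (ENSMUSG00000022812) at chr16:38089001-38246084 on the plus strand. Cdk5 (ENSMUSG00000028969) spans chr5:24418241-24423530 on the minus strand, and Cdk5r1 (ENSMUSG00000048895) spans chr11:80477023-80481184 on the plus strand. Fyn (ENSMUSG00000019843) is at chr10:39368855-39565381, plus strand. Mark1 (ENSMUSG00000026620) is at chr1:184896789-184999570 and Mark2 (ENSMUSG00000024969) at chr19:7275396-7341860, both on the minus strand. Dyrk1a (ENSMUSG00000022897) is at chr16:94570010-94695517, plus strand. Ppp2ca (ENSMUSG00000020349) is at chr11:52098681-52127778 on the plus strand and Ppp2r2a (ENSMUSG00000022052) at chr14:67014056-67072444 on the minus strand. Gsk3a shares 820 exonic bases, 28.3% of its own, with the antisense gene 9130221H12Rik, which was assigned 825 counts over the 16 mice against 36397 for Gsk3a. Ppp2ca shares 2985 exonic bases, 39.9% of its own, with 9430098F02Rik, which was assigned 0 counts. Whether counting used strand is not given in the sources used here, so reads from either pair may not have been told apart.

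Promoter sequences were matched for 7 members, Gsk3a, Gsk3b, Fyn, Mark1, Mark2, Dyrk1a and Ppp2ca. The windows below, from RefSeq on GRCm38.p6, run from 250 bases before to 50 bases after the annotated start. They are shown for the pair of GSK3 genes, whose fitted differences under NR in hTau.P301S mice had opposite signs. The PP2A catalytic subunit is also shown, since its level correlated with that of its B subunit over 16 mice (r = 0.73). That call did not hold without the 2 mice farthest from the median of Ppp2ca. Capitals mark matches on either strand to the GC box GGGCGG, the cAMP response element (CRE) TGACGTCA, its half-site TGACG (which overlaps the CRE), the TATA box TATAAA, the CCAAT box CCAAT or the ETS core CCGGAAG.
Gsk3a, chr7:25237802-25238101, minus strand: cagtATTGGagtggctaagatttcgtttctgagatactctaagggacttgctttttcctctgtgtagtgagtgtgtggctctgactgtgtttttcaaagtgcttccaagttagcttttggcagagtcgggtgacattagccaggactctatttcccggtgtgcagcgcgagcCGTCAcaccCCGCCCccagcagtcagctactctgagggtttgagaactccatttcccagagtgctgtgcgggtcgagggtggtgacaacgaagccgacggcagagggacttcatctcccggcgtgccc
Gsk3b, chr16:38088751-38089050, plus strand: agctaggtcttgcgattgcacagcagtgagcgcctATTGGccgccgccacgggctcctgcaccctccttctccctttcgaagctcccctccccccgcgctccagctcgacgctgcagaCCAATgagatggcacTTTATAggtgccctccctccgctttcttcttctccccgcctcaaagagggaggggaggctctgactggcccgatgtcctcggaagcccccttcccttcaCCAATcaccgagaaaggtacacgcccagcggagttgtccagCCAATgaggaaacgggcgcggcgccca
Ppp2ca, chr11:52098574-52098873, plus strand: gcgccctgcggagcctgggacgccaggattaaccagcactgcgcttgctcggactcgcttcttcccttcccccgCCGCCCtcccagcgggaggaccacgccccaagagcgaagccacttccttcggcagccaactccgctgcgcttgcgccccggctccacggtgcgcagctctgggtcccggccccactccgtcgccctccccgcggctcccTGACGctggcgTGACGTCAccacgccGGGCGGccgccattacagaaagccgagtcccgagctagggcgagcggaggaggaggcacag
The paralogs shared the CCAAT box, with 4 matches in Gsk3b and 1 in Gsk3a, and of the 32851 promoters of the same length 37.4% held it. Of this pair, Gsk3a alone held the GC box (35.7% of promoters) and the CRE half-site (20.8%), and Gsk3b alone held TATAAA (13.6%), 117 bases before the start on the opposite strand. Ppp2ca held the full palindromic CRE 26 bases before its start, which 1.79% of promoters held, 2 GC boxes, and an additional half-site 37 bases before the start. The ETS core, held by 8.86% of promoters, was in none of the 3 windows. These matches describe the letters in the windows and were not tested for binding.

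In WT mice the 10 genes spanned a several-fold range of level per length (CPM per kilobase of the length listed with the counts, whose definition is not stated). Cdk5r1, the gene of p35, was highest at 70.5 ± 3.87 CPM per kilobase (SD, n = 4), above Mapt, the mouse tau gene, at 56.5 ± 4.97. Ppp2ca at 44.6 ± 3.42 and Gsk3a at 43.9 ± 2.07 followed and overlapped each other. Cdk5 (32.1 ± 1.10) and Fyn (28.9 ± 2.58) came next and overlapped as well. Gsk3b (19.3 ± 4.11), Ppp2r2a (17.0 ± 1.95), Mark1 (16.1 ± 2.11) and Mark2 (13.6 ± 0.646) formed a run in which each overlapped its neighbour. Dyrk1a was lowest at 9.28 ± 1.44 and did not overlap Mark2. Per kilobase of listed length, the alpha isoform of GSK3 exceeded the beta isoform in every WT mouse (41.3 to 45.8 against 13.4 to 22.8), while in CPM, without length, the order was the reverse in every WT mouse, so it rests on the listed lengths. On the per-kilobase scale p35 exceeded its kinase Cdk5 (68.1 to 76.3 against 30.8 to 33.4).

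**Figure D1:**
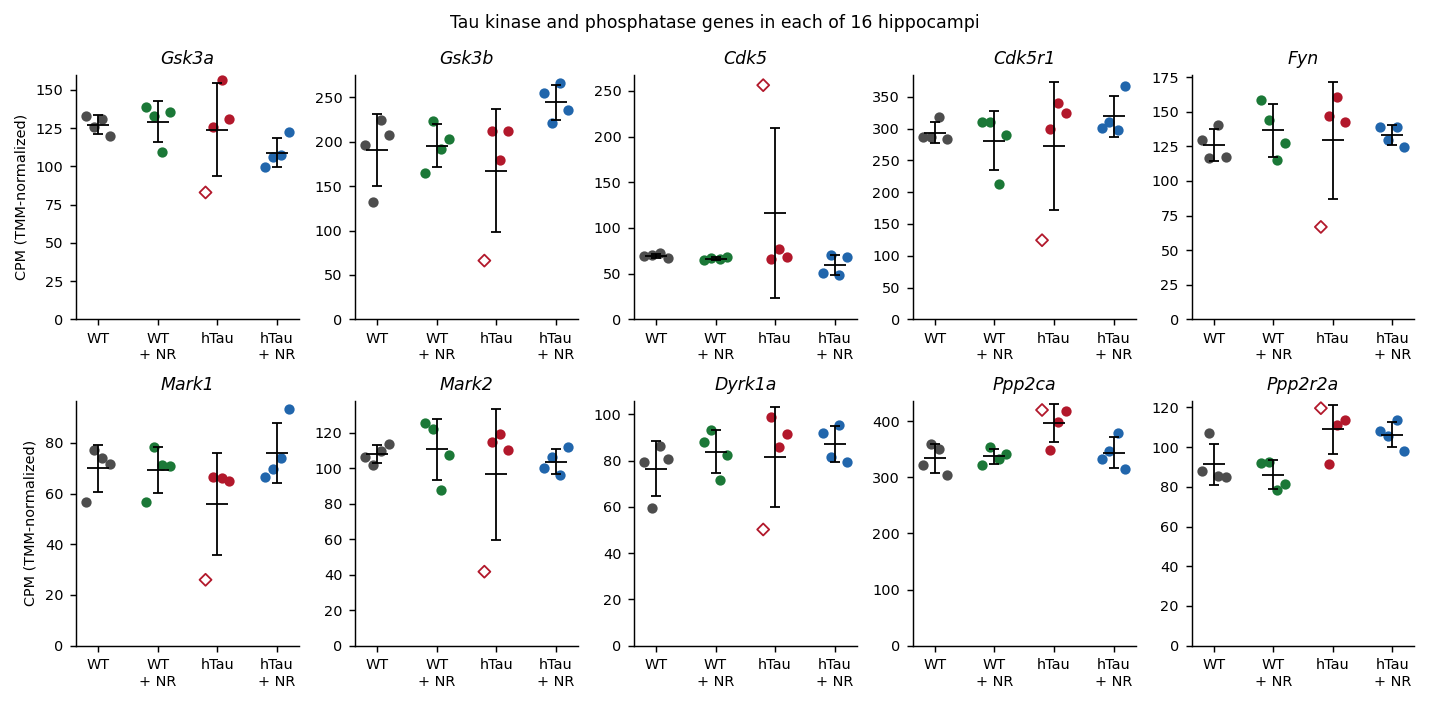
Level of each of the 10 genes (CPM, TMM-normalized, axes from 0) in each of 16 mice by group (hTau stands for hTau.P301S). Points are mice, horizontal marks with bars are the mean and SD of 4 mice, and the open diamond is hTau.P301S replicate 1, which is lowest of the 16 mice in 7 panels and highest in 3.

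Leaving out hTau.P301S replicate 1, the 10 genes varied little from mouse to mouse, with coefficients of variation of 8.98% (Ppp2ca) to 16.2% (Gsk3b) over 15 mice of all groups. In hTau.P301S replicate 1, 7 genes were below and 3 above all other mice. Over all 17555 genes kept, 66.9% were at such an extreme in this mouse. Gsk3b measured 66.2 CPM there against 132 to 266 in the others, and Mark1 26.0 against 56.5 to 93.2. Mark2, Cdk5r1, Fyn, Dyrk1a and Gsk3a were lower by factors of 2.63, 2.42, 2.08, 1.71 and 1.51 relative to the median of the other 15 mice. Cdk5 was the exception among the kinases at 256 CPM, 3.78-fold the median of the others, which lay between 48.8 and 76.5. The PP2A genes were only just above the rest, Ppp2ca at 420 against at most 419 CPM and Ppp2r2a at 120 against at most 114.

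The levels in this mouse varied with gene length. Its log2 CPM minus the mean of the other 15 had a median of 1.22 for genes listed at under 2000 bases and of -1.01 for genes of 8000 bases or more. Cdk5, at 2168 bases the shortest member, and Gsk3b, at 9831 the longest, lay at the ends of the members' range, with differences of 1.96 and -1.63. A fitted length trend left differences of 1.26 for Cdk5 and -0.71 for Gsk3b. It also left -1.24 for Mark1, -1.14 for Cdk5r1, -0.90 for Gsk3a, -0.82 for Fyn and -0.62 for Mark2. Ppp2ca (7490 bases) and Ppp2r2a (5381 bases) were above this trend by 0.98 and 0.72, while Dyrk1a (8251 bases) was within 0.048 of it.

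**Figure D2:**
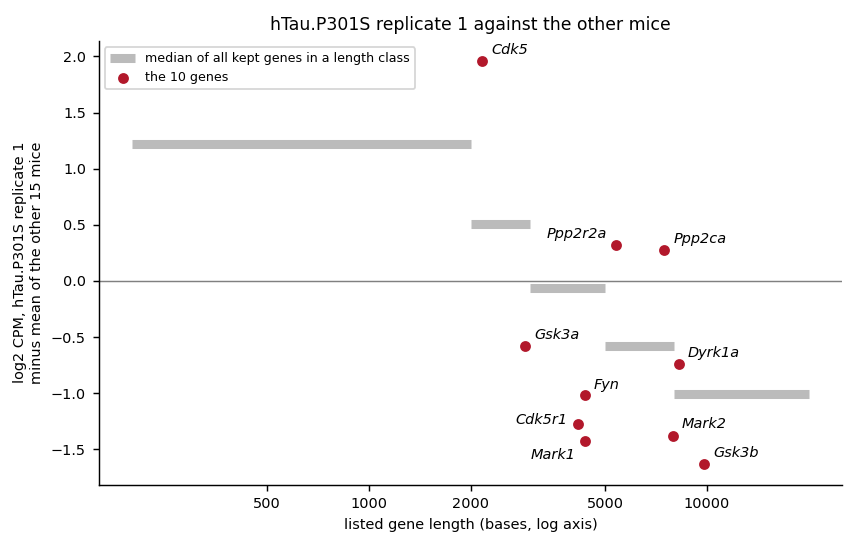
Difference in log2 CPM between hTau.P301S replicate 1 and the mean of the other 15 mice (vertical axis) against listed gene length in bases (horizontal log axis). Red points are the 10 genes and grey bars the medians of all kept genes in 5 length classes, falling from 1.22 to -1.01, the outer bars being cut at the ends of the axis. Cdk5, Dyrk1a and both PP2A genes lie above the bars of their classes.

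Comparing hTau.P301S with WT mice, 0 of 10 members were called (0.00611% of 16375 genes tested were), 0 had an unadjusted p under 0.05 (7.14% of genes did) and 0 had groups without overlap (6.31% did). Their median log2 fold change was -0.00092 against 0.023 over all genes, with 5 genes higher and 5 lower. With hTau.P301S replicate 1 left out, 0 were called (0.0832% of genes) and 0 had a p under 0.05 (11.8%), yet 9 of 10 were higher in the transgenic mice, with a median of 0.11 against -0.028 over all genes. Fyn alone then did not overlap WT, at 143 to 161 against 117 to 140 CPM (13.0% of genes did not overlap).

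Comparing hTau.P301S + NR with hTau.P301S mice, 0 of 10 members were called (0.00610% of genes), and 0 had an unadjusted p under 0.05 (12.9%). Groups did not overlap for 2 of 10, Gsk3b and Mark1 (11.8% of genes). When hTau.P301S replicate 1 was left out, 0 were called (0.197%), 2 had a p under 0.05 (18.0%), namely Gsk3a and Gsk3b, and 4 did not overlap (16.9%), with Gsk3b and Mark1 above and Gsk3a and Fyn below under NR. Counts of 2 and 4 among 10 genes are too small to be set apart from these backgrounds. Both comparisons used the same hTau.P301S mice, so a low or high level in those mice enters both.

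In WT mice, 0 of 10 members were called for NR (0 of 16714 genes were), 0 had a p under 0.05 (0.790%) and 0 had groups without overlap (0.826%). The 95% intervals of all 10 lay between 0.771-fold and 1.37-fold, which was the narrowest range of the pairwise comparisons that used all 8 mice. Between hTau.P301S + NR and WT + NR mice, 0 were called (0.0540%), 3 had an unadjusted p under 0.05 (6.09%), namely Ppp2r2a, Gsk3b and Gsk3a, and 1, Ppp2r2a, had groups without overlap (3.77%). The count of 3 fell to 2 with DESeq2, RLE factors, no filter or the length trend removed and to 1 with all 4 groups in one fit. Gsk3a was then above 0.05 (unadjusted p = 0.0508 by DESeq2 and 0.0539 with RLE factors, from the fit over all genes). It was also above 0.05 without any one of WT + NR replicates 1, 2 and 4 and hTau.P301S + NR replicates 1, 2 and 3, and without hTau.P301S + NR replicate 1 Gsk3b was above 0.05 as well (unadjusted p = 0.0511). Over genotype with all 16 mice, 0 were called (0.159%) and 1, Ppp2r2a, had a p under 0.05 (9.06%), and without hTau.P301S replicate 1 these counts were 0 (0.436%) and 1 (14.7%). For the interaction of NR with genotype, 0 were called (0%) and 0 had a p under 0.05 (7.92%). In the same fit minus hTau.P301S replicate 1, 0 were called (0%) and 1, Gsk3a, had a p under 0.05 (7.50%).

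**Figure D3:**
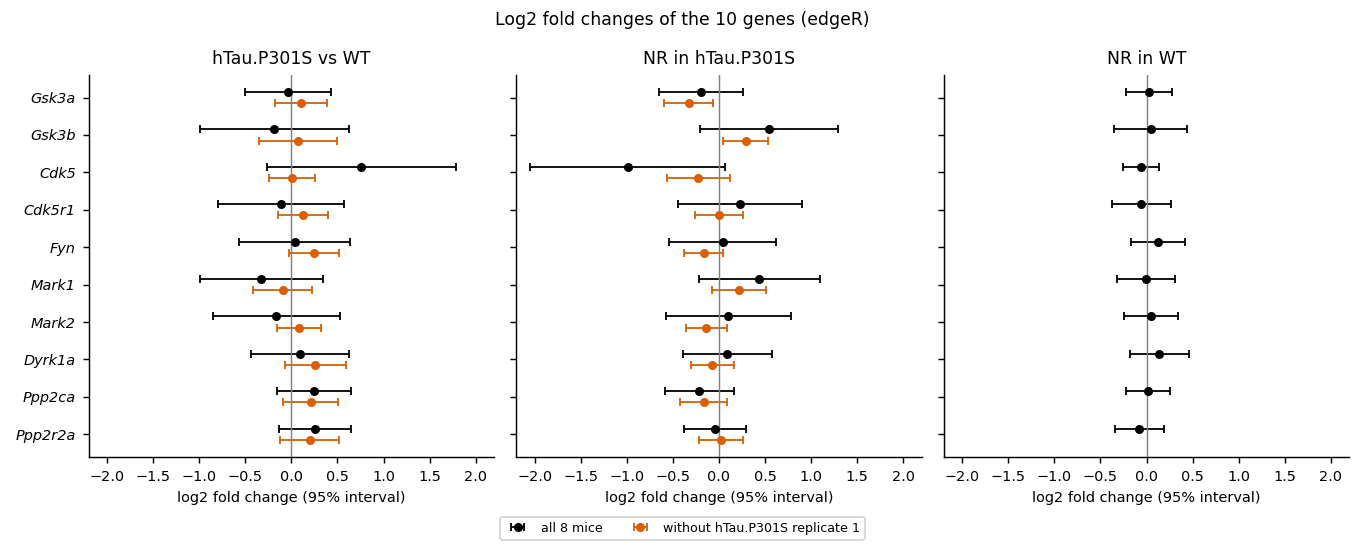
Log2 fold change of each gene from edgeR with its 95% interval for hTau.P301S against WT, NR in hTau.P301S and NR in WT. Black points use all 8 mice and orange points leave out hTau.P301S replicate 1, which shortens the intervals and moves Cdk5 from 0.76 to 0.01 in the first panel.

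Gsk3b, the isoform most often named as a tau kinase, measured 196, 132, 224 and 208 CPM in WT mice and 164, 223, 192 and 203 in WT + NR mice. It measured 66.2, 212, 180 and 213 CPM in hTau.P301S and 255, 221, 266 and 236 in hTau.P301S + NR mice. The lowest WT value came from WT replicate 2. The treated transgenic mice were all above the untreated ones, and 3 of them were above all 8 WT mice. The log2 fold change for NR was 0.54 (SE 0.33, edgeR adjusted p = 0.406), with an exact two-sided permutation p of 0.0286, the smallest that 4 against 4 mice can give. Without hTau.P301S replicate 1 it was 0.29 (SE 0.11), a fold of 1.22 (1.03 to 1.45), with an adjusted p of 0.216 and a range of 0.216 to 0.658 over the alternatives tried.

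Gsk3a, the alpha isoform, measured 133, 126, 131 and 120 CPM in WT, 139, 133, 110 and 136 in WT + NR, 83.0, 126, 156 and 131 in hTau.P301S and 99.7, 106, 107 and 122 in hTau.P301S + NR mice. Setting hTau.P301S replicate 1 aside, the treated transgenic mice were below the untreated ones. For NR the log2 fold change was -0.19 (SE 0.20, edgeR adjusted p = 0.614) with all 8 mice and -0.33 (SE 0.12, adjusted p = 0.201, range 0.119 to 0.924 over alternatives) without that mouse. Against WT + NR, Gsk3a was -0.25 (SE 0.11, edgeR unadjusted p = 0.0456, adjusted p = 0.781) and Gsk3b 0.32 (SE 0.12, unadjusted p = 0.0209, adjusted p = 0.781) on the log2 scale. The interaction of NR with genotype for Gsk3a was -0.21 (SE 0.23), and -0.35 (SE 0.15, edgeR unadjusted p = 0.0339, adjusted p = 0.647) without hTau.P301S replicate 1. No value for either isoform passed the adjustment over all genes.

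Cdk5 is inactive until bound by an activator such as p35, the product of Cdk5r1. Cdk5 measured 66.8 to 72.5 CPM in WT and 64.5 to 68.3 in WT + NR mice. In hTau.P301S mice it measured 256, 66.3, 76.5 and 67.9 CPM, and in hTau.P301S + NR mice 51.1, 70.5, 48.8 and 67.9. The 256 came from hTau.P301S replicate 1, while the other 3 untreated transgenic mice lay close to WT. Its log2 fold change between hTau.P301S and WT was 0.76 (SE 0.45, edgeR adjusted p = 0.598) with that mouse and 0.01 (SE 0.11) without it. For NR in hTau.P301S mice it was -0.99 (SE 0.47, adjusted p = 0.367) with and -0.23 (SE 0.15, adjusted p = 0.472, range 0.0988 to 0.658 over alternatives) without it. Of the 4 hTau.P301S + NR mice, 2 were below all 8 WT mice and 2 were within their range.

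Cdk5r1 measured 284 to 318 CPM in WT mice, 213 to 311 in WT + NR, 124 to 341 in hTau.P301S and 297 to 367 in hTau.P301S + NR mice. Its lowest value, 124 CPM, was in the same mouse that had the highest Cdk5. Against WT, the log2 fold change in hTau.P301S mice was -0.11 (SE 0.30) with all mice and 0.12 (SE 0.12) without that mouse, so its direction depended on it. The 7 remaining transgenic mice were all above the median of the 8 WT mice.

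Fyn, the tyrosine kinase that binds tau in dendrites, measured 130, 117, 140 and 117 CPM in WT and 66.8, 147, 161 and 143 in hTau.P301S mice. Of the untreated transgenic mice, 3 were above every untreated WT mouse and the fourth was below all. Between hTau.P301S and WT the log2 fold change was 0.04 (SE 0.27), and 0.25 (SE 0.12, edgeR adjusted p = 0.461, range 0.252 to 0.995 over alternatives) without hTau.P301S replicate 1. Under NR, WT mice measured 115 to 159 CPM and transgenic mice 124 to 139, and these groups overlapped.

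Mark1 and Mark2 code for microtubule affinity-regulating kinases, which phosphorylate tau within its microtubule-binding repeats. Mark1 measured 56.6, 77.3, 74.2 and 71.7 CPM in WT, 56.5, 78.5, 71.1 and 71.0 in WT + NR, 26.0, 66.5, 66.1 and 65.0 in hTau.P301S and 66.7, 69.7, 74.0 and 93.2 in hTau.P301S + NR mice. All treated transgenic mice were above the untreated ones, the closest mice being at 66.7 and 66.5 CPM, and both groups overlapped WT with the exception of hTau.P301S replicate 1. The log2 fold change for NR was 0.44 (SE 0.29, edgeR adjusted p = 0.435, exact permutation p = 0.0286) and 0.22 (SE 0.13, adjusted p = 0.414, range 0.259 to 0.658 over alternatives) without that mouse. Mark2 measured 102 to 114 CPM in WT, 87.6 to 126 in WT + NR, 41.7 to 119 in hTau.P301S and 96.0 to 112 in hTau.P301S + NR mice, and its log2 fold change for NR turned from 0.10 (SE 0.30) to -0.14 (SE 0.10) without hTau.P301S replicate 1.

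Dyrk1a, a dual-specificity kinase that also primes tau for GSK3, measured 59.4 to 86.5 CPM in WT, 71.5 to 93.2 in WT + NR, 50.3 to 98.8 in hTau.P301S and 79.5 to 95.6 in hTau.P301S + NR mice. The lowest WT value came from WT replicate 2, the mouse with the highest striatal markers. Its log2 fold change between hTau.P301S and WT was 0.09 (SE 0.23), 0.26 (SE 0.15) without hTau.P301S replicate 1, -0.027 (SE 0.25) without WT replicate 2 and -0.033 (SE 0.26) without hTau.P301S replicate 2, so either of the latter turned its direction.

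Ppp2r2a codes for the B alpha subunit, which directs PP2A towards tau. It measured 87.8, 107, 85.6 and 84.9 CPM in WT, 92.0, 92.6, 78.7 and 81.3 in WT + NR, 120, 91.4, 111 and 114 in hTau.P301S and 108, 105, 114 and 98.1 in hTau.P301S + NR mice. All 8 transgenic mice were above the median of the 8 WT mice and 5 were above all of them. The highest WT value was again that of WT replicate 2. Over 16 mice the log2 fold change for genotype was 0.28 (SE 0.09, edgeR unadjusted p = 0.00672, adjusted p = 0.355), 0.25 (SE 0.08, adjusted p = 0.172) without hTau.P301S replicate 1 and 0.33 (SE 0.09, adjusted p = 0.175) without WT replicate 2, and the adjusted p ranged from 0.0576 to 0.616 over 23 alternatives. An exact permutation test that kept the treatment groups apart gave p = 0.00286 over 4900 arrangements, and p = 0.00653 without hTau.P301S replicate 1, as 1 of 10 such tests.

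The genotype difference of Ppp2r2a was of like size with and without NR. In untreated mice it was 0.26 (SE 0.17, edgeR adjusted p = 0.602) on the log2 scale, with overlap between the groups. In treated mice it was 0.30 (SE 0.09, edgeR unadjusted p = 0.00863, adjusted p = 0.761), with hTau.P301S + NR at 98.1 to 114 and WT + NR at 78.7 to 92.6 CPM, without overlap (exact permutation p = 0.0286). The interaction was 0.05 (SE 0.18, 95% interval -0.33 to 0.43).

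Ppp2ca codes for the alpha isoform of the catalytic subunit. It measured 321, 360, 351 and 305 CPM in WT and 322, 354, 332 and 341 in WT + NR mice. In hTau.P301S mice it measured 420, 348, 398 and 419 CPM, and in hTau.P301S + NR mice 333, 348, 379 and 314. Of these, 3 untreated transgenic mice were above all 8 WT mice, while treated transgenic mice overlapped both. Against WT, the difference in hTau.P301S mice was 0.25 on the log2 scale (SE 0.18, edgeR adjusted p = 0.612, exact permutation p = 0.0857), and 0.21 (SE 0.13) without hTau.P301S replicate 1. For NR in hTau.P301S mice it was -0.21 (SE 0.16, edgeR adjusted p = 0.492, exact permutation p = 0.0571). Over genotype it was 0.14 (SE 0.09), with an exact permutation p of 0.0425 that became 0.0788 without hTau.P301S replicate 1.

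Levels of 4 pairs of members, chosen by their roles, were compared from mouse to mouse as deviations from the group mean, with 100000 permutations within groups. Ppp2ca and Ppp2r2a went together, with Pearson r = 0.73 (permutation p = 0.00516, adjusted over 4 pairs 0.0206) and Spearman rho = 0.68 (permutation p = 0.00813, adjusted 0.0325) over 16 mice. Without hTau.P301S replicate 1, r was 0.70 (permutation p = 0.0115, adjusted 0.0459) and rho 0.67 (permutation p = 0.0195, adjusted 0.0725). Without the 2 mice farthest from the median of Ppp2ca, r was 0.67 and its adjusted permutation p 0.130, so the call then no longer held. With the length trend of each mouse removed, r was 0.92 (adjusted permutation p = 0.0145) and rho 0.65 (adjusted permutation p = 0.072), and r was 0.83 (adjusted permutation p = 0.0289) when hTau.P301S replicate 1 was also left out.

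The other pairs rested on hTau.P301S replicate 1. Cdk5 and Cdk5r1, kinase and activator, had r = -0.82 (permutation p = 0.241, adjusted 0.241) and rho = -0.35 (permutation p = 0.241, adjusted 0.241) with it, and r = 0.38 (permutation p = 0.0785, adjusted 0.157) and rho = 0.57 (permutation p = 0.0362, adjusted 0.0725) without it. Gsk3a and Gsk3b went from r = 0.68 (permutation p = 0.186, adjusted 0.241) and rho = 0.40 (permutation p = 0.177, adjusted 0.236) to r = -0.17 (permutation p = 0.514) and rho = -0.24 (permutation p = 0.398). Mark1 and Mark2 went from r = 0.83 (permutation p = 0.112, adjusted 0.224) and rho = 0.61 (permutation p = 0.101, adjusted 0.202) to r = 0.00020 (permutation p = 1.0) and rho = 0.11 (permutation p = 0.739). For neither pair of paralogs was co-variation detected among the remaining 15 mice, a number that leaves a wide range of correlations open.

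**Figure D4:**
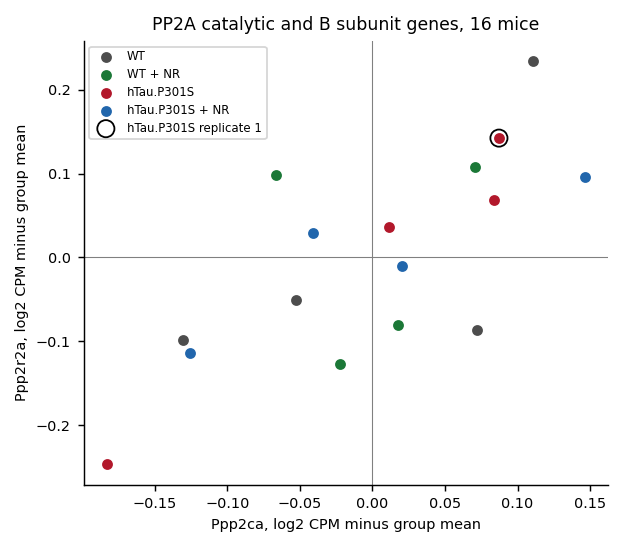
Log2 CPM of Ppp2r2a against Ppp2ca, each minus its group mean, in 16 mice coloured by group. The ring marks hTau.P301S replicate 1, which lies within the spread of the other mice, and Pearson r is 0.73 with it and 0.70 without it.

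Other genes of the same machinery were examined in 4 lists of 43 tau kinases, 15 kinase regulators, 20 phosphatase subunits and 11 PP2A regulators, 89 genes in all, chosen with earlier results of these data known. Between hTau.P301S and WT mice 0 of 88 tested genes were called (0.00611% of all genes) and 3.41% had a p under 0.05, all 3 higher, beside 7.14% of all genes. With hTau.P301S replicate 1 left out, 1 was called (0.0832% of all genes). A p under 0.05 was held by 9 (10.2%), 8 of them higher, beside 11.8% of all genes. For NR in hTau.P301S mice 0 were called (0.00610% of all genes) and 10.2% had a p under 0.05, 3 higher and 6 lower, beside 12.9% of all genes. Without hTau.P301S replicate 1, 0 were called (0.197% of all genes) and 17 (19.3%) had a p under 0.05, 4 higher and 13 lower, beside 18.0%. For NR in WT mice 0 of 89 were called (0 of all 16714 genes) and 1.12% had a p under 0.05, beside 0.790%. In the interaction 7 genes (7.87%) had a p under 0.05, all negative, beside 7.92% of all genes, of which 812 were negative and 578 positive. Against WT, the median difference of the phosphatase subunits in hTau.P301S mice was 0.18 on the log2 scale, with 16 of 20 higher, and it was -0.14 for NR in hTau.P301S, with 13 of 20 lower, beside medians of 0.023 and -0.031 over all genes. Tau kinases had medians of -0.0087 and 0.011. Without hTau.P301S replicate 1, the medians against WT were 0.15 for the phosphatase subunits and 0.14 for tau kinases, beside -0.028 over all genes. For NR in hTau.P301S they were then -0.15 and -0.087, beside 0.00057 over all genes. The gap between these lists was thus small against WT without that mouse, and for NR it was narrower than with it.

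Sgk1, a serum- and glucocorticoid-regulated kinase, had the smallest p of the 89 genes in 3 comparisons. It measured 80.5, 53.0, 56.2 and 55.7 CPM in WT, 98.3, 68.9, 119 and 110 in WT + NR, 140, 317, 168 and 299 in hTau.P301S and 74.0, 74.8, 136 and 58.8 in hTau.P301S + NR mice. Untreated transgenic mice were above all mice of the other 3 groups, the closest pair being 140 and 136 CPM. Over all genes, 6.31% did not overlap between hTau.P301S and WT, and 11.8% between hTau.P301S + NR and hTau.P301S. The same hTau.P301S mice are in both comparisons, so a high level in them enters both. The log2 fold change between hTau.P301S and WT was 1.91 (SE 0.31, edgeR unadjusted p = 0.000169, adjusted p = 0.198). Leaving out hTau.P301S replicate 1, it was 2.08 (SE 0.24) and passed the call (adjusted p = 0.0228, range 2.71e-09 to 0.869 over 17 alternatives, of which 5 called it). For NR it was -1.43 (SE 0.36, edgeR adjusted p = 0.350, range 0.00012 to 0.658 over 17 alternatives, of which 3 called it) in hTau.P301S mice and 0.70 (SE 0.20, unadjusted p = 0.00692, adjusted p = 1.0) in WT mice. The interaction was -2.12 (SE 0.43, edgeR unadjusted p = 0.000171, adjusted p = 0.426), and 2 of 22 alternatives called it (adjusted p from 6.46e-05 to 0.741).

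Ppp2r1a, the gene of the PP2A scaffold subunit, measured 480, 598, 550 and 493 CPM in WT, 560, 577, 492 and 521 in WT + NR, 1106, 619, 786 and 751 in hTau.P301S and 487, 572, 501 and 543 in hTau.P301S + NR mice. As with Sgk1, the untreated transgenic mice were above all others, beside the same shares of all genes without overlap. Its log2 fold change was 0.63 (SE 0.24, edgeR unadjusted p = 0.0283, adjusted p = 0.598) against WT and -0.64 (SE 0.22, adjusted p = 0.367, range 0.0255 to 0.658 over 17 alternatives, of which 1 called it) for NR in hTau.P301S. It was 0.43 (SE 0.15, adjusted p = 0.370, range 0.0154 to 0.869 over 17 alternatives, of which 1 called it) against WT without hTau.P301S replicate 1. Frat2, which codes for a GSK3-binding protein, was at 10.2 to 14.5 CPM in hTau.P301S and 6.07 to 8.97 in hTau.P301S + NR mice, without overlap (11.8% of all genes), and its log2 fold change was -0.79 (SE 0.21, edgeR unadjusted p = 0.0045, adjusted p = 0.367). Over 17 alternatives this adjusted p ranged from 0.0232 to 0.658, and 3 called the gene. Cdk1, a mitotic kinase, was at 0.0560 to 0.548 CPM in WT and 0.382 to 0.565 in WT + NR mice, near the limit of counting at this depth, and its difference of 1.14 (SE 0.62, unadjusted p = 0.0972) was not resolved.

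**Figure D5:**
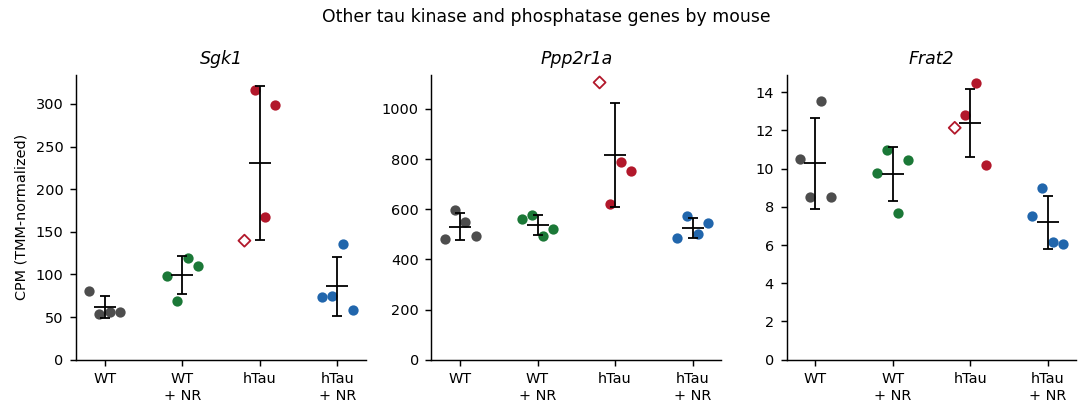
Sgk1, Ppp2r1a and Frat2 (CPM, TMM-normalized, axes from 0) in each of 16 mice by group (hTau stands for hTau.P301S), with mean and SD of 4 mice. The open diamond is hTau.P301S replicate 1. Untreated transgenic mice lie above all others for Sgk1 and Ppp2r1a. Over all genes, 6.31% did not overlap between hTau.P301S and WT, and 11.8% between hTau.P301S + NR and hTau.P301S.

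Mapt, the mouse gene of the substrate, measured 370 to 447 CPM in WT, 413 to 493 in WT + NR, 188 to 477 in hTau.P301S and 425 to 484 in hTau.P301S + NR mice. The log2 fold change between hTau.P301S and WT was -0.22 (SE 0.28, edgeR adjusted p = 0.772) and -0.010 (SE 0.14) without hTau.P301S replicate 1, which held the 188. By the root mean square difference between profiles centred on their means, the genes most like Gsk3b over 16 mice were Taf1 (0.068 on the log2 scale), Dennd4a (0.075) and Alkbh8 (0.081), and Taf1 and Dennd4a were also among the nearest 3 without hTau.P301S replicate 1. Those most like Cdk5 were Tpi1 (0.092), Psmd13 and Nudt18 (both 0.106), none of which was among the nearest 3 over the remaining 15 mice. Those most like Ppp2ca were Gorasp2 (0.058), Wdr36 (0.060) and Copg2 (0.067). The median difference over all genes was 0.635, 0.679 and 0.479 for the 3 members.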

How the data were processed

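Hippocampal RNA of 16 mice was sequenced, 4 per group by the labels, from libraries made with a NEBNext Ultra kit. The authors checked reads with FastQC, trimmed them with Trim Galore, aligned them to mm10 with STAR and estimated gene levels with RSEM. They deposited raw counts per gene as whole numbers. The deposited table also lists a gene length, another value whose definition is not stated, which was used per kilobase and for length trends.

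Comparisons were fitted with edgeR 4.0.16 (R 4.3.3) on the counts of the mice compared, with its default filter, TMM normalization and quasi-likelihood test over all genes, with Benjamini-Hochberg adjustment over all genes tested. Standard errors came from the fold change and test statistic. Log2 CPM used a prior count of 2. Exact permutation tests (two-sided, scipy 1.17.1) used log2 CPM, and 4 against 4 mice cannot give a p under 0.0286. Their p-values are unadjusted. The exact test over genotype within treatments was added after seeing the data. No source used here states litters or cages, so p-values measure the spread between these mice.

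Alternatives were DESeq2 1.42.0, RLE factors, no filter, all 4 groups in one fit, the adjusted p alone, removal of each mouse's length trend (lowess, span 0.3), a replicate block and each mouse left out. Members, gene lists and tests were chosen with earlier results of these data known. The named genes were the 10 members, Mapt and Thy1, called genes of the wider lists or otherwise the 2 with the smallest p in each of the first 3 comparisons, and the 3 profiles nearest to Gsk3b, Cdk5 and Ppp2ca. Scripts were tested on simulated data. Depth was 16490261 to 21915362 counts per mouse, with a median of 18415134, so genes near 1 CPM rest on few counts.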

Additional observations from a re-analysis of the deposited data

Results flagged for a closer look

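In groups of 4 mice, a mouse was taken to stand apart where its gap to the nearest other mouse was over 0.829 of the group's range. Of 40 pairs of gene and group, 5 had such a mouse, and chance alone gives about 1 in 20. Of these, 3 were hTau.P301S replicate 1, at 256 CPM for Cdk5 (others 66.3 to 76.5), 26.0 CPM for Mark1 (others 65.0 to 66.5) and 41.7 CPM for Mark2 (others 110 to 119). The mouse WT replicate 3 had 318 CPM of Cdk5r1 (others 284 to 287). Its oligodendrocyte markers summed to 2630 CPM, against 5808 to 8919 in all other mice, without TMM normalization. WT replicate 2, the mouse with the highest striatal markers and a slope of -0.36 on gene length, had 107 CPM of Ppp2r2a (others 84.9 to 87.8). The part of RNA quality or dissection in these values was not tested.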

How the results depend on the processing

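No member was called in any of 1110 fits of members under alternatives, and the smallest adjusted p was 0.0576 (Ppp2r2a over genotype, DESeq2 over all groups minus hTau.P301S replicate 1, an alternative chosen after seeing the data). Of these fits 1033 kept the main direction. DESeq2, RLE factors, no filter and the fits of all 4 groups with every mouse reversed none of them. The adjusted p alone, 50 of the 1110, reuses the fold changes of the main fits and so cannot reverse a direction.

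Same-numbered mice are different animals, and their deviations correlated at -0.54 to 0.29, so the numbers were not taken to pair them. The replicate block called 0 members, left 1 of the 3 members with an unadjusted p under 0.05 between the treated groups, and reversed Fyn for hTau.P301S against WT (-0.027 on the log2 scale). Over all genes it called 3, 0, 0, 4, 36 and 0 against 1, 1, 0, 9, 28 and 0 in the main fits (hTau.P301S against WT, NR in hTau.P301S, NR in WT, hTau.P301S + NR against WT + NR, genotype, interaction). DESeq2 called 115, 283, 0, 58, 167 and 18 and the unfiltered fits 5, 1, 0, 15, 32 and 0, where the median of all genes moved from 0.023 to -0.13 in the first comparison and from -0.031 to 0.076 in the second. For the 4 pairwise comparisons, all groups in one fit gave 36, 2, 0 and 7 by edgeR and 494, 287, 2 and 21 by DESeq2. Removal of the length trend gave 9, 1, 0, 13, 51 and 0. Without hTau.P301S replicate 1 edgeR called 14 and 33 in the first pair, 78 over genotype and 0 in the interaction, and DESeq2 over all groups 474, 151, 316 and 36. Without WT + NR replicate 3 the treated comparison had 31 calls, and without WT + NR replicate 1 genotype had 46.

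Log2 fold changes that reversed with the length trend removed were Mark2 -0.064 and Dyrk1a -0.13 for NR in hTau.P301S, Ppp2ca -0.019 for NR in WT, Ppp2ca -0.013 for hTau.P301S + NR against WT + NR, Fyn 0.0081 for genotype, and Mark2 -0.077 and Ppp2r2a -0.064 for the interaction. With DESeq2 over all groups minus hTau.P301S replicate 1, they were Gsk3a 0.11, Gsk3b 0.078, Cdk5r1 0.13 and Mark2 0.085 for hTau.P301S against WT, Cdk5r1 -0.0040, Fyn -0.17, Mark2 -0.14, Dyrk1a -0.074 and Ppp2r2a 0.020 for NR in hTau.P301S, Cdk5 -0.072, Fyn 0.11 and Mark1 0.022 for genotype, and Mark2 -0.17 for the interaction. The cause was not tested.

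Leaving out 1 mouse at a time reversed at least one value of the following, with hTau.P301S replicate 1 the most frequent. For hTau.P301S against WT these were Gsk3a from -0.17 to 0.11, Gsk3b from -0.34 to 0.075, Cdk5r1 from -0.23 to 0.12, Fyn from -0.083 to 0.25, Mark2 from -0.28 to 0.083 and Dyrk1a from -0.033 to 0.26. For NR in hTau.P301S they were Cdk5r1 from -0.00097 to 0.35, Fyn from -0.17 to 0.16, Mark2 from -0.14 to 0.22, Dyrk1a from -0.070 to 0.20 and Ppp2r2a from -0.10 to 0.023. For NR in WT they were Gsk3a from -0.026 to 0.097, Gsk3b from -0.10 to 0.13, Cdk5r1 from -0.13 to 0.053, Mark1 from -0.095 to 0.061, Mark2 from -0.042 to 0.14 and Ppp2ca from -0.023 to 0.050. For hTau.P301S + NR against WT + NR they were Fyn from -0.11 to 0.056, Dyrk1a from -0.011 to 0.11 and Ppp2ca from -0.016 to 0.066. For genotype they were Cdk5 from -0.075 to 0.39, Cdk5r1 from -0.025 to 0.15, Fyn from -0.061 to 0.10 and Mark1 from -0.15 to 0.020, and for the interaction Fyn from -0.28 to 0.049, Mark2 from -0.18 to 0.18, Dyrk1a from -0.20 to 0.070 and Ppp2r2a from -0.033 to 0.11.

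The correlation of Cdk5 with Cdk5r1 was 0.32 without the 2 mice farthest on the first gene, 0.38 without hTau.P301S replicate 1 and 0.54 with the length trend also removed, a setting chosen after seeing the data in which it passed (adjusted permutation p = 0.0289, rho = 0.64 with adjusted permutation p = 0.0315). That of Gsk3a with Gsk3b was -0.14 and -0.17, and that of Mark1 with Mark2 -0.21 and 0.00020, in the first pair of settings. Ppp2ca with Ppp2r2a ranged from 0.67 to 0.70 there and lost its call in the former.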
